A study of Homo sapiens with 11 samples.

Results

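Neprilysin and 8 other membrane peptidases were followed in A375 cells, a human melanoma line with an activating BRAF mutation, before, during and after long exposure to a MEK inhibitor. The 9 genes, out of 58721 in the count table, were taken by name: the metalloendopeptidases MME, MMEL1, ECE1 and ECE2, the aminopeptidases ANPEP, ENPEP and LNPEP, and the prolyl dipeptidyl peptidases DPP4 and FAP. Poly(A) RNA was sequenced from 11 libraries, all of A375 cells labelled wild type. Of these, 5 came from withdrawn cells, taken 4 weeks after trametinib was removed, 5 from persister cells held in 2 nM trametinib for 8 weeks, and 1 from untreated parental cells. The titles tie withdrawn libraries 1 to 5 to persister cultures 1 to 5. Whether the cultures were independent is not stated in the labels, so the p-values here rest on a spread between libraries that may be technical. Total counts ran from 56513920 to 82984566 per library. ERK output followed the labels: DUSP6, a phosphatase of ERK, averaged 186 ± 9.28 CPM in withdrawn cells and 24.8 ± 4.78 CPM in persister cells (SD, n = 5 each), with 168 CPM in the parental library. CPM is the count of a gene scaled to a common library size, after correction of the library sizes for composition.

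The family was put together around MME, whose rise in persister over parental cells was already known. That comparison is therefore given as a description, with no p-value, and nothing is read from the number of members past the threshold in it. Levels across drug withdrawal and between withdrawn and parental cells were tested with edgeR's quasi-likelihood test over all 23693 genes with enough counts, with Benjamini-Hochberg adjustment and a threshold of 0.05. The comparisons share libraries, so they do not bear on each other independently. The persister libraries in which MME was known to be high also enter the test across withdrawal, so its choice favoured a fall there. Of the 9 members, 7 passed the filter on low counts; MMEL1 and ECE2 did not.

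Most of these enzymes sit in the plasma membrane with the active site outside the cell, where they trim or destroy peptide hormones and growth factors. Neprilysin, also known as CD10, is a zinc metalloendopeptidase that cleaves enkephalins, substance P, natriuretic peptides, endothelins and bradykinin. The endothelin-converting enzymes belong to the same protein family, whereas aminopeptidases remove residues from the amino end and DPP4 and FAP cut after proline. MME marks precursor lymphocytes, stromal cells and kidney epithelium, and FAP marks activated fibroblasts.

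MME, ENPEP and ANPEP had the largest falls of the 7 tested members across withdrawal, and their start regions are shown here for that reason. The sequences are from RefSeq on GRCh38.p14, which held start regions for 7 of the 9 members; each spans 250 bases before to 50 bases after a start. They are written 5′ to 3′ in the direction of transcription. Capitals mark matches, on either strand, to the AP-1 letters TGANTCA, the TEAD letters GGAATG, the E-box CACGTG or the GC box GGGCGG.
MME, chr3:155079422-155079721, plus strand: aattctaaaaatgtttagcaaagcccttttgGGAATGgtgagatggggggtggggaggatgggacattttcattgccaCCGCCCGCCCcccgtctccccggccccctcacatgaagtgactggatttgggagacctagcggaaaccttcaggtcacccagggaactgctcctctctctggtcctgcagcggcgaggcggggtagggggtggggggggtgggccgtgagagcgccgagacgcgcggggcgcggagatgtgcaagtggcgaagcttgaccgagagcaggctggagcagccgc
ENPEP, chr4:110475905-110476204, plus strand: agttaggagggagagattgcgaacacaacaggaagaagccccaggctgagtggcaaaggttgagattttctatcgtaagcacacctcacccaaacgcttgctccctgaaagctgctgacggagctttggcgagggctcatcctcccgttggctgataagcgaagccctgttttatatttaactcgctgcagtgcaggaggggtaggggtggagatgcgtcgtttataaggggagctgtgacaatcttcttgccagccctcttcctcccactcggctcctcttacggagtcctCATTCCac
ANPEP, chr15:89814803-89815102, minus strand: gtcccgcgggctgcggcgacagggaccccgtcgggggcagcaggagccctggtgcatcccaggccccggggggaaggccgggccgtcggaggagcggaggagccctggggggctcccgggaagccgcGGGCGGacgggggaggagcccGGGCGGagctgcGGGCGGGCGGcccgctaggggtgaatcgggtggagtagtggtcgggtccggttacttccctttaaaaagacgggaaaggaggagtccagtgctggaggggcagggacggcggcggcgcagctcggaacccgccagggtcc
The MME window is the most upstream of 4 in RefSeq and the ANPEP window the more upstream of 2. Gene counts do not show which start was used. Each window printed lies inside the gene positions given below, downstream of the outermost start there. The MME window printed held 1 TEAD match and 2 overlapping GC boxes, and the ENPEP window held 1 TEAD match. MME windows 2, 3 and 4, further downstream, held no TEAD match and 3, 2 and 0 GC boxes, some of them shared where windows overlap. The ANPEP window printed held 4 GC boxes, and the other ANPEP window held none. Among 34943 start regions of this length, 14% held the TEAD letters, 44.9% the GC box, 7.72% the AP-1 letters and 7.23% the E-box. AP-1 letters were in none of the 15 windows of the members. A match is a description of the letters and not a binding site.

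MME was nearly silent in the parental library and among the most abundant transcripts in persister cells, and most of it was gone after withdrawal. The gene (ENSG00000196549) lies on chromosome 3 (155024124 to 155183729, plus strand, GRCh38). Persister cultures 1 to 5 had 2278, 3225, 756, 1891 and 3019.9 CPM, against 0.168 CPM in the parental library. The parental value rests on 11 reads, with an exact 95% counting interval of 0.0840 to 0.301 CPM, and such intervals cover counting error only. All 5 persister libraries were far above it, and the fitted ratio was 13130.0 (log2 fold change 13.68 ± 2.38 (SE)). MME ranked between 16 and 135 of all genes by CPM in the persister libraries and took 0.0747% to 0.311% of all counts there.

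After withdrawal MME stood at 13.1, 1.19, 23.99, 6.67 and 4.79 CPM in cultures 1 to 5, against 756 to 3225 CPM in the persister cultures. The groups did not overlap, and MME fell 224-fold (log2 fold change -7.81 ± 0.84 (SE), adjusted p = 2.31e-05, lower in 5 of 5 cultures). Because MME was chosen for its high level in these persister libraries, its edgeR p-value is a description. The size of the drop differed widely: the persister level was 2708 times the withdrawn level in culture 2 and 31.5 times in culture 3. Culture 3 had the lowest MME of the persister libraries and the highest of the withdrawn libraries.

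MME stood above the 1 parental library in every withdrawn library. Such a lack of overlap, in either direction, was seen for 63.8% of all genes tested. The lowest withdrawn library, culture 2 at 1.19 CPM (interval 0.925 to 1.51 CPM), lay above the upper bound of the parental interval, 0.301 CPM. These intervals leave out the spread between cultures. The mean of 9.95 ± 8.96 CPM (SD, n = 5) in withdrawn cells was 58.5-fold above the parental library by the fit (log2 fold change 5.87 ± 1.87 (SE)). This difference did not pass edgeR's test with only 1 parental library (adjusted p = 0.176, unadjusted 0.00953), and it passed in 1 of 16 alternatives, DESeq2 (adjusted p = 1.25e-04). The adjusted p was 0.532 with limma-voom and 0.409 with no filter on low counts. In CPM, 0.438% of the mean difference between persister and parental cells was left after withdrawal.

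**Figure D1:**
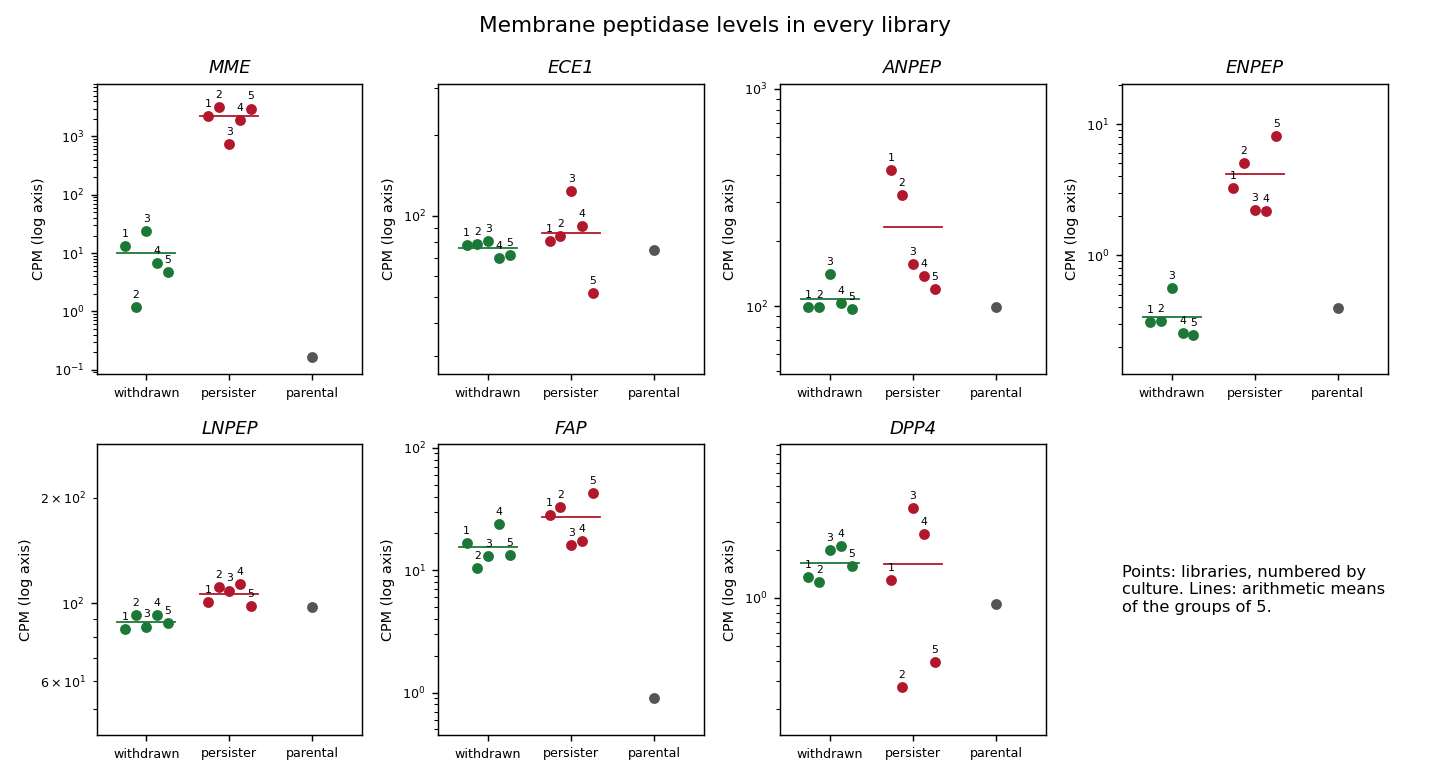
Level of each tested member in every library, in CPM on a log axis; points are libraries numbered by culture and lines are arithmetic means of the groups of 5. MME lies at 1.19 to 23.99 CPM in withdrawn, 756 to 3225 CPM in persister and 0.168 CPM in parental cells, and FAP lies at 10.4 to 23.8 CPM in withdrawn, 16.1 to 42.7 CPM in persister and 0.903 CPM in parental cells.

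Of the other metalloendopeptidases, ECE1 alone had enough reads to be tested. ECE1, which releases active endothelin from its precursor, stood at 77.8, 78.9, 80.8, 69.9 and 71.6 CPM in withdrawn cultures 1 to 5, against 80.5, 83.9, 124, 91.6 and 51.6 CPM in persister cultures 1 to 5. The withdrawn values lay inside the range of the persister values, and the difference did not pass the test (log2 fold change -0.19 ± 0.18 (SE), adjusted p = 0.398). Without persister 5, the lowest of the persister libraries, it passed (log2 fold change -0.33, adjusted p = 0.0402). The parental library had 74.6 CPM. ECE1 (ENSG00000117298) lies on chromosome 1 (21217247 to 21345572, minus strand).

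MMEL1, the closest relative of neprilysin among the members, had 1 read in withdrawn library 1 and none in the other 10 libraries. A count of 0 allows up to 0.00881 CPM over the 5 persister libraries together and 0.0459 CPM in the parental library. ECE2, another endothelin-converting enzyme, was listed at 0 in all 11 libraries, and so was EEF1AKMT4-ECE2, an annotated gene that shares 62.7% of the exon bases of ECE2 on the same strand. How the counting treated reads shared by both genes is not given in the sources used here, so no level is read for ECE2.

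ANPEP, or aminopeptidase N, which removes neutral residues from peptides, was the most abundant of the 9 per kilobase of exon in withdrawn and parental cells. It had 98.98, 99.4, 139.8, 103 and 97.2 CPM in withdrawn cultures 1 to 5, against 423, 324, 157, 138 and 119 CPM in persister cultures 1 to 5, and the parental library had 99.1 CPM. Persister cultures 1 and 2 were high, and the other 3 persister libraries lay close to withdrawn library 3, so the groups overlapped. ANPEP fell 2.15-fold across withdrawal (log2 fold change -1.11 ± 0.34 (SE), adjusted p = 0.0169, lower in 5 of 5 cultures), and it passed in 16 of 17 alternative fits, the exception being the fit with no filter on low counts (adjusted p = 0.0599). Withdrawn cells averaged 108 ± 18.1 CPM and did not pass the test against the parental library (adjusted p = 0.953). The gene (ENSG00000166825) lies on chromosome 15 (89784889 to 89815401, minus strand).

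ENPEP, or aminopeptidase A, which trims angiotensin II, was low everywhere but moved with the drug. Withdrawn cultures 1 to 5 had 0.311, 0.315, 0.564, 0.256 and 0.248 CPM, against 3.26, 5.05, 2.21, 2.18 and 8.13 CPM in persister cultures 1 to 5. The groups did not overlap and ENPEP fell 12.2-fold (log2 fold change -3.61 ± 0.43 (SE), adjusted p = 3.07e-05, lower in 5 of 5 cultures). The parental library had 0.398 CPM (26 reads, interval 0.260 to 0.583 CPM), inside the range of the withdrawn libraries, and the persister mean of 4.16 ± 2.51 CPM was 10.4-fold above it. ENPEP (ENSG00000138792) lies on chromosome 4 (110365733 to 110565285, plus strand).

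LNPEP, the oxytocin-degrading aminopeptidase that also travels with the insulin-responsive glucose transporter, changed least among the members that passed. It had 84.3, 92.8, 85.9, 92.5 and 88.1 CPM in withdrawn cultures 1 to 5, against 101, 111, 109, 114 and 98.05 CPM in persister cultures 1 to 5. The groups did not overlap, and the 1.20-fold fall passed the test (log2 fold change -0.26 ± 0.07 (SE), adjusted p = 0.0077, lower in 5 of 5 cultures). The parental library, at 97.9 CPM, lay between the groups. LNPEP (ENSG00000113441) lies on chromosome 5 (96935394 to 97037515, plus strand).

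FAP stayed above the parental level in all withdrawn libraries. This serine protease of activated fibroblasts (ENSG00000078098, chromosome 2, 162170684 to 162245151, minus strand) had 16.6, 10.4, 13.02, 23.8 and 13.4 CPM in withdrawn cultures 1 to 5, against 28.3, 32.7, 16.1, 17.4 and 42.7 CPM in persister cultures 1 to 5. The parental library had 0.903 CPM (59 reads, interval 0.687 to 1.16 CPM). All 10 treated or withdrawn libraries stood more than 10-fold above the parental one, and the persister and withdrawn groups overlapped.

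FAP was 17.1-fold higher in withdrawn than in parental cells (log2 fold change 4.09 ± 0.71 (SE), adjusted p = 0.0393, higher in 5 of 5 libraries). It was lower in withdrawn than in persister cells by 1.78-fold in the fit without pairing (log2 fold change -0.83 ± 0.29 (SE), adjusted p = 0.0347), but culture 4 went the other way, and with the cultures paired as a replicate block the adjusted p was 0.0674. The call against the parental library ended without withdrawn 1, 3, 4 or 5, with adjusted p from 0.0598 to 0.0891 and log2 fold changes from 3.89 to 4.14, with no filter on low counts (0.0914) and with limma-voom (0.111). The call across withdrawal ended without persister 1, 2 or 5 or withdrawn 1, 2, 3 or 5 (adjusted p from 0.0525 to 0.0827), and with no filter (0.0848). In CPM, 54.8% of the mean difference between persister and parental cells was left after withdrawal.

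DPP4, which inactivates incretins and some chemokines, lies next to FAP among the tested coding genes, with 96141 bases between them, on the same strand (ENSG00000197635, chromosome 2, 161992241 to 162074542), and showed another pattern. It had 1.35, 1.26, 2.002, 2.09 and 1.57 CPM in withdrawn cultures 1 to 5, against 1.29, 0.277, 3.65, 2.49 and 0.396 CPM in persister cultures 1 to 5, and 0.918 CPM in the parental library. The persister cultures spread 13.2-fold around the withdrawn ones, and no change passed the test (withdrawn over persister, log2 fold change 0.03 ± 0.58 (SE), adjusted p = 0.974). Among the persister cultures DPP4 ran opposite to FAP and ENPEP at the extremes: cultures 2 and 5 had the least DPP4 and the most FAP and ENPEP.

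**Figure D2:**
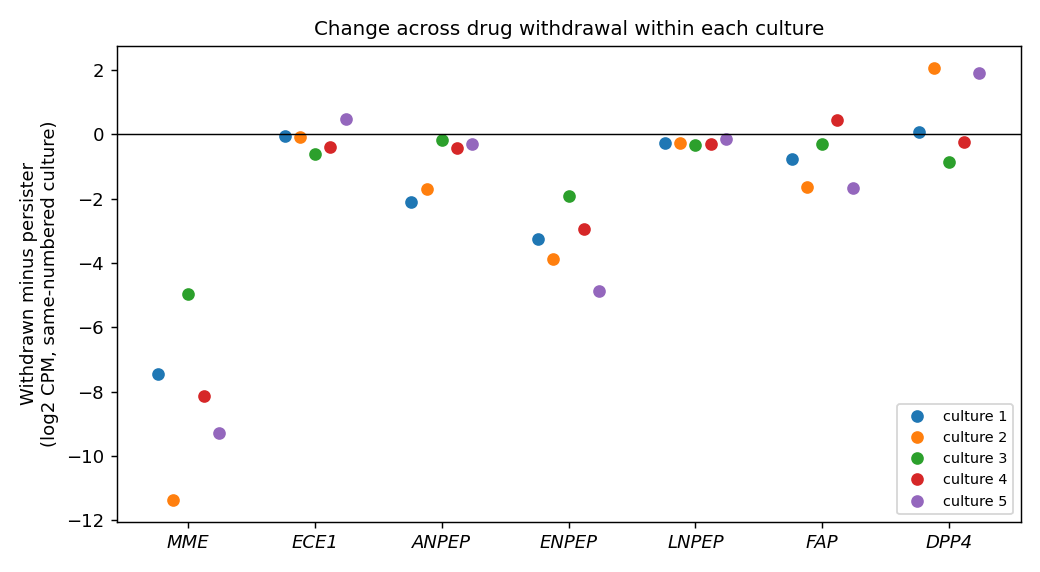
Change of each tested member across withdrawal within each culture, as withdrawn minus persister log2 CPM; points are cultures 1 to 5. MME, ANPEP, ENPEP and LNPEP lie below 0 in 5 of 5 cultures, FAP in 4 of 5 and ECE1 in 4 of 5, and DPP4 lies on both sides.

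Set side by side, 5 of the 7 tested members passed across withdrawal, MME, ANPEP, ENPEP, LNPEP and FAP, and each was lower in withdrawn than in persister cells. Over all genes tested 52.5% passed in this comparison, 24.5% higher and 28.0% lower. The groups did not overlap for 3 of 7 members, against 40.6% of all genes. The median log2 fold change of the 7 was -0.83, beside -0.03 over all genes. Between withdrawn and parental cells 1 of the 7, FAP, passed and was higher, where 0.431% of all genes passed, 0.312% higher and 0.118% lower, and the groups did not overlap for 4 of 7 members against 63.8% of all genes. Between persister and parental cells 3 of the 7, MME, FAP and ENPEP, were called higher, where 31.2% of all genes were called, 16.1% higher and 15.1% lower, and the groups did not overlap for 5 of 7 members against 63.6% of all genes. These counts are no support for a change, since the family was chosen on this comparison.

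**Figure D3:**
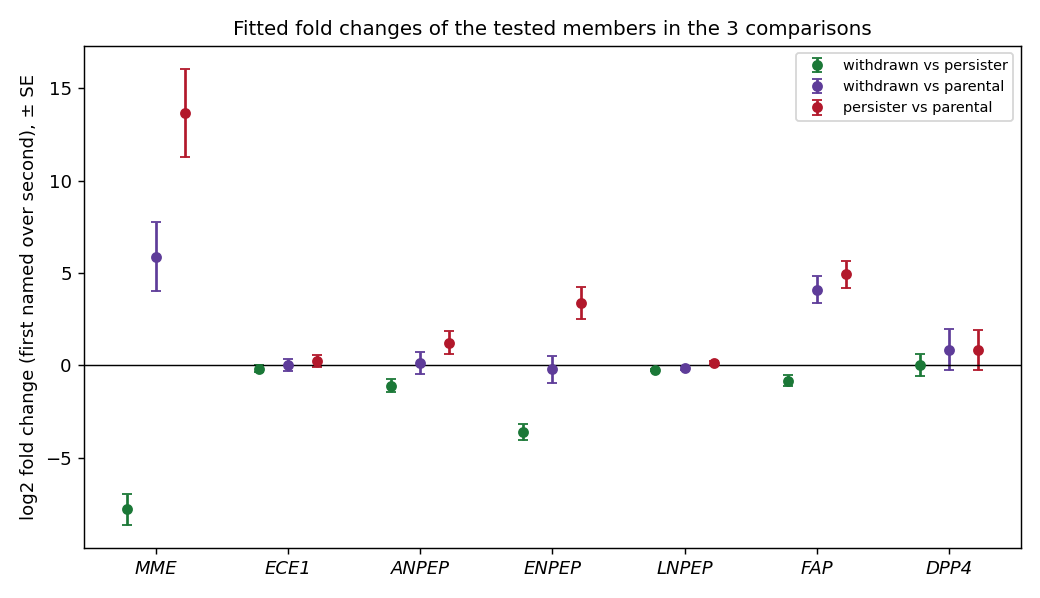
Fitted log2 fold changes of the 7 tested members, with bars of ± 1 SE, in the comparisons of withdrawn with persister, withdrawn with parental and persister with parental cells. MME spans the widest range, from -7.81 to 13.68, and FAP is near 4 to 5 against parental cells in both withdrawn and persister cells.

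Per kilobase of exon, which allows levels of different genes to be compared, persister cells carried MME at 232 ± 103 CPM per kb, ANPEP at 47.65 ± 27.6, ECE1 at 11.8 ± 3.56, LNPEP at 6.98 ± 0.44, FAP at 3.92 ± 1.58, ENPEP at 0.534 ± 0.321 and DPP4 at 0.324 ± 0.288 (SD, n = 5). The ranges of neighbours in this order overlapped for MME and ANPEP, for ECE1 and LNPEP and for ENPEP and DPP4. Within each persister library, however, MME stood above ANPEP and ECE1 above LNPEP. ENPEP stood above DPP4 in some libraries and below it in cultures 3 and 4. With the longest transcript as the length, FAP came above LNPEP (9.87 and 8.36 CPM per kb). In withdrawn cells ANPEP led at 22.1 ± 3.71 CPM per kb and MME came after ECE1, LNPEP and FAP, at 1.03 ± 0.932.

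MME decided the sum. The summed level of the 7 members was 41.9 ± 4.78 CPM per kb in withdrawn cells, 303 ± 112 in persister cells (SD, n = 5 each) and 37.3 in the parental library. MME made up 0.316% to 4.97% of it in withdrawn libraries, 56.9% to 87.4% in persister libraries and 0.0469% in the parental library. Without MME the sums were 40.8 ± 3.95, 71.2 ± 27.5 and 37.3 CPM per kb in withdrawn, persister and parental cells.

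**Figure D4:**
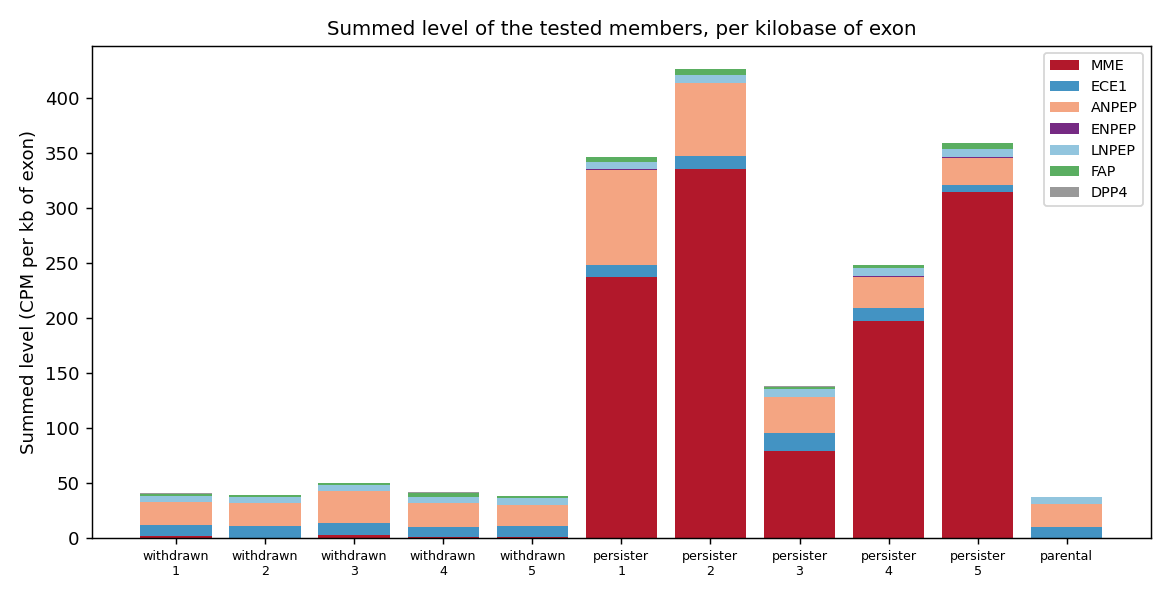
Summed level of the 7 tested members in each library, in CPM per kilobase of exon, stacked by gene. Persister libraries reach 138 to 426, mostly MME, and withdrawn libraries 38.2 to 50.2, mostly ANPEP and ECE1.

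The genes of cell types that carry these enzymes were checked beside them. Of 8 B-lymphoid markers, relevant because CD10 marks their precursors, 4 passed the filter, and the summed level was 14.97 to 19.01 CPM in withdrawn, 6.37 to 10.2 CPM in persister and 7.27 CPM in parental cells, most of it CD22 and RAG1. MS4A1 had no read in persister cells, and PAX5 reached at most 0.0273 CPM there. DNTT, the terminal transferase of precursor lymphocytes, had no read in withdrawn and parental cells and 0.107 to 0.437 CPM in persister cells, and CD79A had 0 to 0.0297 CPM in withdrawn, 0.0243 to 0.320 CPM in persister and 0.0765 CPM in parental cells. Of the 7 tested fibroblast markers, 6 were lower in withdrawn than in persister cells, where 28.0% of all genes tested were lower. A low gene read almost only in persister cells was more likely to be called lower, so this count is a description. The list of 8 summed to 23.2 to 30.7 CPM in withdrawn, 54.5 to 342 CPM in persister and 15.2 CPM in parental cells. LUM made up 32.7 to 292 CPM of the persister sum and averaged 4.08 CPM in withdrawn and 2.16 CPM in parental cells. PDGFRB, the largest part of the withdrawn sum, averaged 19.5 CPM in withdrawn, 16.6 CPM in persister and 10.9 CPM in parental cells. COL1A1 stood at 0.784 to 1.75 CPM in withdrawn, 0.998 to 6.11 CPM in persister and 1.3 CPM in parental cells. DCN averaged 0.535 CPM in withdrawn, 15.1 CPM in persister and 0.643 CPM in parental cells. In the same groups COL3A1 averaged 0.0995, 6.83 and 0.0153 CPM. COL1A2 averaged 0.0763, 1.32 and 0.0459 CPM, and THY1 0.0288, 0.525 and 0.0765 CPM. DPT had at most 0.0122 CPM in persister cells and no read in withdrawn or parental cells.

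Brush border markers, relevant to ENPEP and ANPEP, went the other way: 4 of the 4 tested were higher in withdrawn than in persister cells, and the list summed to 7.34 to 21.3 CPM in withdrawn, 1.54 to 4.49 CPM in persister and 8.23 CPM in parental cells, with SI at 0 throughout. Of the 7 tested melanocyte lineage genes 3 were higher and 3 lower in withdrawn than in persister cells, and the list summed to 1033.6 to 1139.5 CPM in withdrawn, 392.4 to 1002.7 CPM in persister and 789.7 CPM in parental cells. DCT, a pigment enzyme, averaged 34.3 CPM in withdrawn, 424 CPM in persister and 2.94 CPM in parental cells. MLANA averaged 0.657 CPM and TYRP1 0.111 CPM in withdrawn, against 16.04 and 4.34 CPM in persister cells, and they had 1.15 and 0.122 CPM in parental cells. In the opposite direction, the melanocyte factor SOX10 averaged 814 CPM in withdrawn, 51.9 CPM in persister and 635 CPM in parental cells, and MITF stood at 109.9 to 171.6, 89.7 to 119 and 78.4 CPM in the same groups. Leukocyte markers other than LYZ stayed under 1 CPM each, T-lymphoid markers summed to at most 0.371, 0.221 and 0.398 CPM, endothelial markers to at most 3.33, 7.48 and 1.99 CPM, and keratinocyte markers, mostly KRT10, to at most 39.1, 59.7 and 40.3 CPM in withdrawn, persister and parental cells. The part of other cell types in the member levels was not tested, and in bulk RNA more cells of a type and more RNA per cell cannot be told apart.

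Peptide precursors that these enzymes are known to process were compared next, with their receptors and other peptidases. The lists held 138 genes, of which 86 were tested; 34 were lower and 16 higher in withdrawn than in persister cells. Of the 21 tested precursors 12 were lower (57.1%) and 2 higher, against 28.0% and 24.5% of all genes, and their median log2 fold change was -2.20 beside -0.03. Only 3 of the 12 had a mean log2 CPM of at least 1: ADM, TAC1 and NMB. A low gene that passed the filter through the persister libraries alone was more likely to be called lower, so these shares are a description.

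TAC1, the precursor of substance P, averaged 4.15 ± 2.06 CPM in withdrawn and 12.7 ± 11.6 CPM in persister cells (SD, n = 5 each), with 2.85 CPM in the parental library. It ranged from 2.73 to 7.69 CPM in withdrawn and from 2.21 to 31.9 CPM in persister libraries, so the groups overlapped. Its fall passed the test (log2 fold change -1.62 ± 0.60 (SE), adjusted p = 0.0413), but not without persister 2, 3 or 4 or withdrawn 1, 2, 3 or 5, with a log2 fold change of -0.95 without persister 4. Over all alternatives its adjusted p ran from 0.00382 to 0.132. Adrenomedullin, ADM, averaged 6.34 ± 1.24 CPM in withdrawn and 23.2 ± 8.51 CPM in persister cells and fell 3.66-fold (adjusted p = 8.76e-05), and neuromedin B, NMB, fell 1.64-fold (adjusted p = 0.0025).

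PENK, the precursor of the enkephalins, classic substrates of neprilysin, was chosen after its values were seen. It had no read in the withdrawn libraries or the parental library and 6.07 to 26.9 CPM in the 5 persister libraries. From pooled counts, persister cells were at least 1767.6-fold above withdrawn cells and at least 345-fold above the parental library, with a floor of 3 counts over each group. The 5 libraries with PENK reads were the persister libraries, where MME was also high. Any gene read only in that group would match MME in this way, so no link between the genes is read from it.

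Among 27 tested receptors 10 were lower and 4 higher in withdrawn than in persister cells (37% and 14.8%, against 28.0% and 24.5% of all genes). Of the 10 lower receptors 9 had a mean log2 CPM below 1, so the limit given for the precursors holds here too. The delta opioid receptor gene OPRD1 went against MME and PENK: it averaged 26.8 ± 1.67 CPM in withdrawn and 0.467 ± 0.318 CPM in persister cells, a 55.7-fold rise (log2 fold change 5.80 ± 0.46 (SE), adjusted p = 2.66e-06), with 34.96 CPM in the parental library. EDNRB, an endothelin receptor of the melanocyte lineage, rose 4.61-fold to 125 ± 14.96 CPM in withdrawn cells, against 27.2 ± 7.74 CPM in persister cells (adjusted p = 2.98e-06). RAMP1, a partner of the calcitonin-like receptor, rose 2.84-fold (adjusted p = 5.40e-04), and the natriuretic peptide receptor NPR2 fell 2.12-fold to 10.1 ± 0.487 CPM in withdrawn cells, against 21.4 ± 2.53 CPM in persister cells (adjusted p = 5.95e-06). Named after their values were seen, NPR3, which clears natriuretic peptides, had 0.0143 to 0.0551 CPM in withdrawn and 2.601 to 11.8 CPM in persister libraries. TACR1, the substance P receptor, had 0 to 0.0148 CPM in withdrawn and 0.230 to 1.04 CPM in persister libraries. Both had no read in the parental library.

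The remaining peptidases moved in both directions. Over all genes tested 28.0% were lower and 24.5% higher in withdrawn than in persister cells. The shares were 37.5% and 12.5% of the further M1 aminopeptidases, and 37.5% and 25% of the further prolyl peptidases. Of 8 further M1 aminopeptidases 3 were lower and 1 higher in withdrawn than in persister cells: AOPEP averaged 16.7 ± 1.92 CPM in withdrawn and 69.9 ± 8.39 CPM in persister cells (4.18-fold lower, adjusted p = 1.06e-07), and TRHDE, which degrades thyrotropin-releasing hormone, 11.8 ± 4.87 CPM in withdrawn and 47.3 ± 10.3 CPM in persister cells (4.01-fold lower, adjusted p = 1.96e-04). The antigen-trimming ERAP1 was 1.28-fold lower (adjusted p = 0.0263; up to 0.0563 without withdrawn 1, 2 or 5), and LTA4H was 1.23-fold higher (adjusted p = 0.042). LTA4H passed in 6 of 17 alternatives and had an adjusted p of 0.0795 with the replicate block; without persister 2, 3 or 5 or withdrawn 1, 2, 3 or 5 its adjusted p was 0.0592 to 0.0989. Of 8 further prolyl peptidases 3 were lower and 2 higher, with PRCP 2.17-fold, DPP7 2.09-fold and DPP9 1.46-fold lower and APEH 1.38-fold higher (adjusted p from 4.65e-05 to 9.12e-04).

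Of 20 other cell-surface peptidases 6 were higher and 6 lower (30% each, against 24.5% and 28.0% of all genes). FOLH1, or prostate-specific membrane antigen, averaged 10.9 ± 1.48 CPM in withdrawn and 0.722 ± 0.594 CPM in persister cells (adjusted p = 1.09e-04), whereas ADAM12 averaged 9.35 ± 0.608 CPM in withdrawn and 93.9 ± 32.4 CPM in persister cells (adjusted p = 8.24e-07) and ADAM19 was 3.17-fold lower (adjusted p = 0.0012). PHEX, a relative of neprilysin that acts in phosphate balance, averaged 12 ± 1.095 CPM in withdrawn and 4.72 ± 0.716 CPM in persister cells, 2.54-fold higher (adjusted p = 7.34e-06), the direction opposite to MME. Between withdrawn and parental cells 1 of the 86 list genes passed (1.16%, against 0.431% of all genes). It was CPM, the gene of carboxypeptidase M, with 25.4 ± 6.78 CPM in withdrawn and 5.05 CPM in parental cells (adjusted p = 0.0498), and its call ended without persister 3 or any 1 of the withdrawn libraries (adjusted p up to 0.102).

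**Figure D5:**
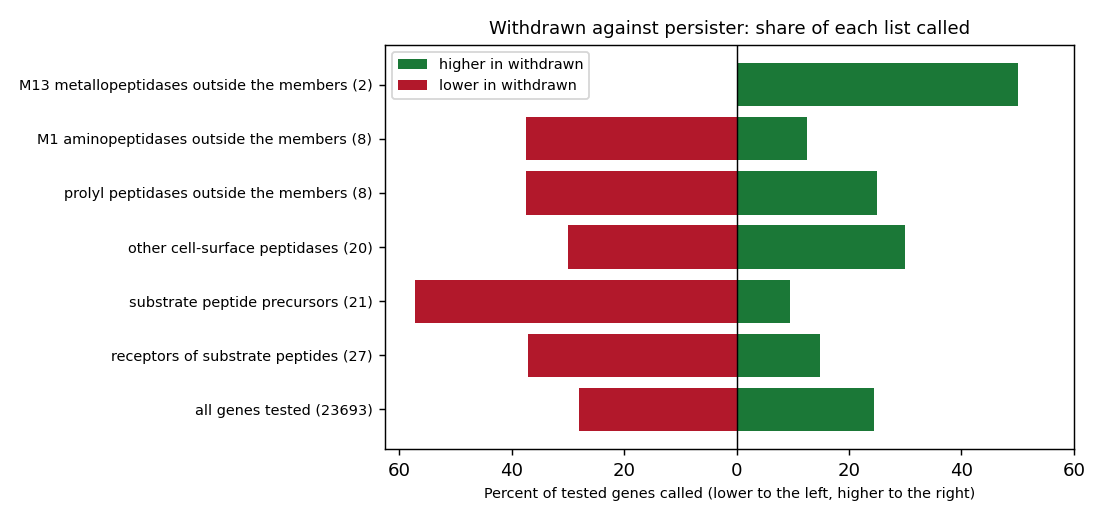
Percent of tested genes of each list called higher (right) or lower (left) in withdrawn than in persister cells, with the number tested in brackets and all genes at the bottom. Precursors of substrate peptides were lower in 57.1%, against 28.0% of all genes.

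Around the MME gene, the antisense transcript MME-AS1, which shares 214 exon bases with MME, had 8 to 24 reads in the persister libraries and none in the withdrawn and parental libraries. Because strand use in the counting is not stated, reads of the shared bases cannot be told apart. The nearest tested coding gene downstream, DWORF at 106500 bases, was at 0 in every withdrawn and parental library, with a persister mean of 0.574 ± 0.413 CPM (SD, n = 5). It passed the filter through the persister libraries alone, so no test is given. The nearest upstream, DHX36 at 699627 bases, did not pass (adjusted p = 0.515). IFIH1, 21928 bases upstream of FAP in the direction of transcription, averaged 13.6 ± 1.46 CPM in withdrawn and 16.2 ± 6.23 CPM in persister cells and did not pass (adjusted p = 0.367).

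Other genes were ranked by how closely their profile over the 11 libraries matched that of a member. The measure was the root mean square difference between log2 CPM values with each gene's mean taken away. The candidates were 11561 tested coding genes whose log2 CPM averaged at least 1. Genes read almost only in persister cells can fall under this cut, as PENK did (mean log2 CPM -1.05). Nearest to MME was BASP1 (difference 1.02), at 1.36 ± 1.83 CPM in withdrawn, 206 ± 53.1 CPM in persister and 0.0612 CPM in parental cells. SOX9 (1.33), MMP3 (1.39), GPRC5C (1.39) and TRPC4 (1.49) followed. SOX9, a neural crest transcription factor, averaged 1.97 ± 1.96 CPM in withdrawn, 133 ± 17.4 CPM in persister and 0.138 CPM in parental cells.

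FAP was nearest to ST8SIA1 (0.313), the synthase of the GD3 ganglioside, at 7.42 ± 2.36 CPM in withdrawn, 14.99 ± 5.73 CPM in persister and 0.673 CPM in parental cells, then to FOXF1 (0.482) and NAV3 (0.507). ENPEP was nearest to ISG15 (0.403), an interferon-induced gene, followed by RASL11A (0.432) and HIST1H4I (0.452). ANPEP was nearest to ADGRG1 (0.244), SH2D5 (0.285) and ILVBL (0.317), and DPP4 to PPP1R13L (0.616), TENT5B (0.647) and COL4A1 (0.752). ECE1 and LNPEP varied by less than 2 on the log2 scale and were not ranked.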

How the data were processed

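The deposited values are read counts per gene, not normalized, in 1 column for each of the 11 libraries. Per the labels' protocols, RNA came from an RNeasy preparation and went into KAPA Stranded mRNA-Seq libraries. The submitters' processing notes list bcl2fastq, HISAT2, HTSeq and hg38, without their settings; the sources used here give neither versions nor the strand setting. GENCODE release 29 supplied symbols and 1-based GRCh38 positions for 58676 of the 58721 gene IDs. edgeR 4.0.16 in R 4.3.3 was run with filterByExpr (minimum count 10, minimum total 15), TMM scaling and a robust quasi-likelihood fit of the 3 groups (8 residual degrees of freedom), with Benjamini-Hochberg adjustment over 23693 genes. The single parental library was assumed to vary like the other groups. SE is the size of the log2 fold change divided by the square root of its F. Alternatives were DESeq2 1.42.0, limma 3.58.1 (voom), other scaling, no filter, fewer samples and a replicate block.

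The titles pair each withdrawn library with a persister culture. Same-numbered libraries deviated from their group means with correlations of 0.0484 to 0.0909 across genes, and in 5 of 5 pairs the own number gave the highest value. No pair of libraries had identical counts. Members, lists and rules were chosen with earlier results of these data known. The naming rule took the members, the genes nearest in profile (5 for MME, 3 for other members whose log2 CPM spanned at least 2), the neighbouring tested coding genes, DUSP6, and of each list the 4 largest called changes across withdrawal among genes whose log2 CPM averaged 1 or more. Of the neighbours, the text gives those of MME and FAP; some genes that the rule or the marker lists hold are not reported here.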

Additional observations from a re-analysis of the deposited data

Results flagged for a closer look

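Each group of 5 libraries was searched for a library far from the others in 14 sets of member values, where chance gives about 1 in 20. ANPEP stood at 139.8 CPM in withdrawn library 3, against 97.2 to 103 CPM in the other 4 withdrawn libraries, a gap of 0.86 of the whole range, with a limit of 0.71. ENPEP stood at 0.564 CPM in the same library, against 0.248 to 0.315 CPM in the others, a gap of 0.786 of the range. The ENPEP value rests on 38 reads, and no other member was flagged in this library. Whether withdrawn library 3 stands apart from the others was not tested.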

How the results depend on the processing

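Across withdrawal, MME, ENPEP and LNPEP passed in 17 of 17 alternatives, with adjusted p up to 6.08e-04, 4.71e-04 and 0.0292. The number of members called was 5. It was 4 with the replicate block, 4 or 5 with a library left out, and 3 with no filter on low counts, which tests more genes. FAP was called in 7 of 17 alternatives. Without persister 5, ECE1 was among the 5 called and FAP was not. With the replicate block FAP (adjusted p = 0.0674) and LTA4H (0.0795) lost their calls, the other members kept theirs, and the block changed no other call across withdrawal among the members and list genes named in the text. DPP4, never called, ran from -0.24 to 0.56 (log2) with a library left out; it turned to -0.05, -0.24 and -0.23 without persister 1, 2 or 5, -0.06 and -0.07 without withdrawn 3 or 4, and -0.38 without persister 1 and 5 together, an alternative chosen after seeing the data. ECE1 against parental cells ran from -0.0053 (without withdrawn 3) to 0.052. Against parental cells FAP was called in 10 of 16 alternatives. There, the number of withdrawn members called was 1, and 2 with DESeq2, 0 with no filter, 0 with limma-voom and 0 to 1 with a library left out. List genes called were 1, and 4 with DESeq2, 0 with DESeq2 size factors, 2 with no filter, 24 with the 6 libraries alone, 0 to 5 with a library left out and 11 without persister 1 and 5. All genes called were 102, and 1146 with DESeq2, 6593 with the 6 libraries alone, 23 to 558 with a library left out and 2086 without persister 1 and 5. For persister against parental cells 20 in place of 35 list genes and 2569 in place of 7391 genes were called with the 6 libraries alone. The causes were not tested. Depth limits the parental values of MME and ENPEP, which rest on 26 reads or fewer.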

Other observations

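The order of the persister cultures by level, a description seen in the values and not tested, had cultures 2 and 5 on top for 3 of the 7 tested members. MME was highest in culture 2, then 5, 1, 4 and 3, FAP in 5, 2, 1, 4 and 3, and ENPEP in 5, 2, 1, 3 and 4, whereas DPP4 ran 3, 4, 1, 5 and 2. The other 3 members differed again: ANPEP ran 1, 2, 3, 4 and 5, ECE1 ran 3, 4, 2, 1 and 5, and LNPEP ran 4, 2, 3, 1 and 5. After withdrawal the order of MME was 3, 1, 4, 5 and 2, so that culture 3, lowest in MME under the drug, was highest afterwards and culture 2 lowest. FAP after withdrawal was highest in cultures 4 and 1.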
